A study of Mus musculus with 10 samples.

Results

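The 40 genes described here encode cyclins, cyclin-dependent kinases and their activators, DNA replication factors, mitotic regulators, and E2F and RB proteins. They were taken as a named list of cell cycle genes, and all 40 were found among the 21887 protein-coding genes annotated on the mouse chromosomes. IKZF2, also called Helios, belongs to the Ikaros family of zinc-finger proteins, and its binding was mapped by CUT&RUN, which cuts out and sequences the DNA around an antibody-bound protein. All samples were RN2 cells, a single C57BL/6 leukaemia line carrying MLL-AF9 and NRASG12D, transduced with a retrovirus expressing murine IKZF2 and RFP, sorted and cultured for 2 weeks. The labels name neither the promoter driving IKZF2 nor separate cultures, so the spread between libraries may be technical. The anti-IKZF2 group held 3 libraries of 2 technical replicates each. The 4 samples with a control rabbit antibody were not analysed here. Values are therefore compared between genes within the anti-IKZF2 libraries, with no background level from a control antibody. The libraries held 1675237, 1570251 and 2081455 reads within a common set of 151133 regions. Of these, technical replicate 1 gave 299742, 273896 and 326440, and technical replicate 2 gave 1375495, 1296355 and 1755015. Each gene was valued by its strongest region within 5 kb of either gene end, as the mean of the 3 libraries. The unit is CPM per kb, where CPM is the count scaled by all reads that the same library had within regions and kb is the width of the region. Errors after ± are SDs over the 3 libraries.

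Proliferating cells pass through the cycle as cyclins activate cyclin-dependent kinases in turn. In G1, cyclin D kinases phosphorylate RB, which frees E2F factors to transcribe genes for DNA synthesis. The origin recognition complex, CDC6 and CDT1 then load the MCM helicase onto origins, a step called licensing, while a later set of genes for mitosis is transcribed through CHR and CCAAT promoter elements bound by the DREAM or MuvB complex and NF-Y. Continued cycling is a defining property of leukaemia cells, and Ikaros family proteins bind sites with a GGGAA core.

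At 5 members with signal in the top 10% of genes, Cdk1, Cdc25a, Mcm3, Top2a and E2f3, the region that gave the signal lay over the promoter. Their promoters are printed to show the sequence under the region, from 250 bases before the annotated start to 50 after it, 5′ to 3′ on the gene's strand (RefSeq, GRCm38.p6). Capitals mark exact matches on either strand to the Ikaros core GGGAA, to E2F sites spelled TTCGCGC or TTGGCGC, to CHR elements spelled TTTGAA or TTCGAA, and to CCAAT. The Cdk1 region covered bases 125 to 219 of its promoter at chr10:69352863-69353162, the Cdc25a region bases 1 to 219 at chr9:109875329-109875628, and the Mcm3 region bases 67 to 300 at chr1:20820263-20820562. The Top2a region covered bases 42 to 213 at chr11:99024140-99024439 and the E2f3 region bases 1 to 257 at chr13:29986014-29986313. These count region starts from 1; if the deposited starts count from 0, the last covered base of Cdk1, Top2a and E2f3 falls away, and the Cdk1 region covers 94 and not 95 bases.
Cdk1 (minus strand): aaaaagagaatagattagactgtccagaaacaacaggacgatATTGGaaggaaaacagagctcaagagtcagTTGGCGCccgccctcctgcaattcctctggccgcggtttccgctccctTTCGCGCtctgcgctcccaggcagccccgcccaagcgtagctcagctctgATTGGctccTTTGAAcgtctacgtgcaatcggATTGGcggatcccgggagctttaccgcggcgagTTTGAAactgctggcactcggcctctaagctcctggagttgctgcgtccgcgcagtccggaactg
Cdc25a (plus strand): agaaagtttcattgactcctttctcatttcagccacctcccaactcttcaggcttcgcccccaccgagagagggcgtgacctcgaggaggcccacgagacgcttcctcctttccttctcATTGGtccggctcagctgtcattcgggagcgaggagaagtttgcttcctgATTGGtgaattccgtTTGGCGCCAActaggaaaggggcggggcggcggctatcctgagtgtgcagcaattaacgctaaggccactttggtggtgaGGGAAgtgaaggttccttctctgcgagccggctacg
Mcm3 (minus strand): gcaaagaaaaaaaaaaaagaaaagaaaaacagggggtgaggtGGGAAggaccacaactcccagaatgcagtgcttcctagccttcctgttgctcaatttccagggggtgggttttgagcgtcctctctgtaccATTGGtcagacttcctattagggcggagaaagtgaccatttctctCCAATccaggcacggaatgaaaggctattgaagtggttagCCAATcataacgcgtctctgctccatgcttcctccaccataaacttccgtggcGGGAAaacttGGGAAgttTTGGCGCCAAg
Top2a (minus strand): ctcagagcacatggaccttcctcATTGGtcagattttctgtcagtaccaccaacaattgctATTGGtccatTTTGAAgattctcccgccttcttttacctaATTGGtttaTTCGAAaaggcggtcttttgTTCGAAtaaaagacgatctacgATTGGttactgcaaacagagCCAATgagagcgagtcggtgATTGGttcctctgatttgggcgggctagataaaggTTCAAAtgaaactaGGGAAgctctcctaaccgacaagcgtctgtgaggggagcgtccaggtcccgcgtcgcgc
E2f3 (minus strand): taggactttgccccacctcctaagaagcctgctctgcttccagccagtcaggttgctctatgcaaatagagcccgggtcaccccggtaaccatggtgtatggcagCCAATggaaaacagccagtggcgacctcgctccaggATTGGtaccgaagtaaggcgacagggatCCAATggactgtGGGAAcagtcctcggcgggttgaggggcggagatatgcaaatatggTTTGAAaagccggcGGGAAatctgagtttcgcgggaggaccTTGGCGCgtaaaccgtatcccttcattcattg
The covered stretch of Cdk1 held a CHR element at bases 180 to 185 and CCAAT matches at bases 171 to 175 and 203 to 207, and it held no GGGAA. In Top2a 5 of the 6 CCAAT matches lay wholly within the covered stretch. The E2F site of Mcm3 lay at bases 290 to 299, where TTGGCGC overlaps its own reverse complement and was counted as 2 matches, as in Cdc25a at bases 185 to 194.

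Cell cycle genes had a region near their ends more often than protein-coding genes as a whole, and those with a region had a higher median signal. A region lay within 5 kb of an end of 36 of 40 members (90.0%), against 73.7% of all protein-coding genes. Within 1 kb there was a region at 28 members (70.0%), against 42.4% of all genes, and a region overlapped an end of 12 members (30.0%), against 15.5%. The 4 members without any region within 5 kb were Ccne1, Cdc20, Aurka and Rb1. Among the 36 members with a region the median signal was 78.8, against 58.8 for all 16133 genes with a region. In the top 10% of genes, at or above 101.8, stood 10 of 36 members (27.8%), against 10.0% of all genes with a region. Members with a region had a median of 3 regions in the window, against 2 for all genes with a region. Among genes with 3 regions only, a comparison added after seeing the data, the 12 members had a median of 85.7, against 64.3 for all. Averaging the regions of a window, a measure added after seeing the data, gave medians of 57.7 for members and 53.2 for all genes, with 7 members in the top 10%. With only regions of 200 bp or wider, 18 members had a value and their median was 53.6, against 54.1 for all genes. Of these 18, 3 were in the top 10% (16.7%, against 10.0% of all genes). The highest regions of members were wider than those of all genes (median 140.5 against 113 bp) and rested on 25 to 219 reads over the 3 libraries. No test was made of the list itself.

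**Figure D1:**
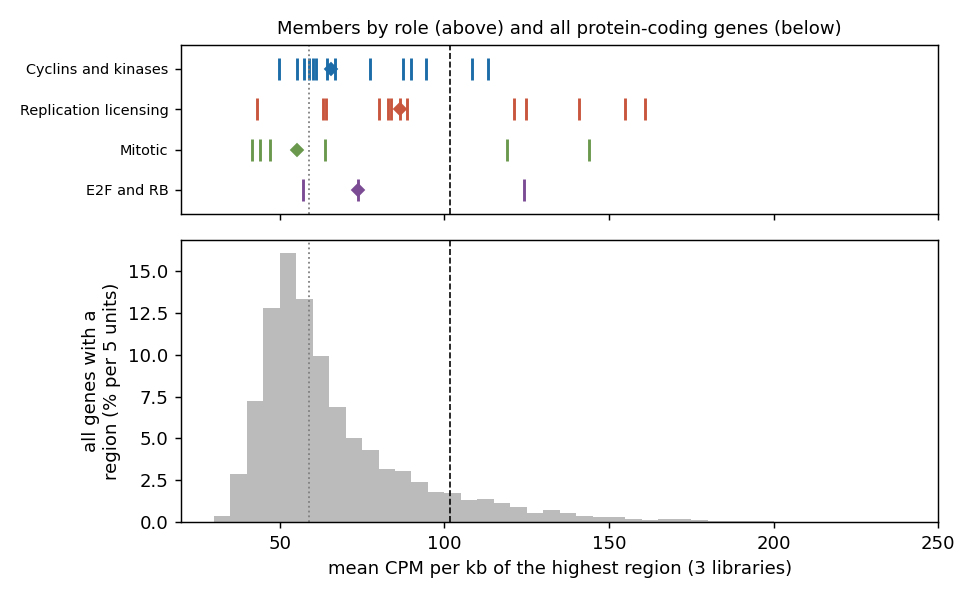
Mean CPM per kb of the highest region for each of the 36 members with a region (ticks, by role, diamonds at the group medians) above the distribution over all 16133 genes with a region (grey bars, percent of genes per 5 units). The dashed line marks the top 10% of genes at 101.8 and the dotted line the median of all genes at 58.8, and 5 of the 10 members right of the dashed line are replication licensing genes.

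Replication licensing genes had a median of 86.4, the highest of the 4 role groups. All 13 had a region, 12 of 13 stood above the median of all genes, and 5 were in the top 10%. Without library 2 the order turned, with a median of 1.21 times that of all genes for licensing genes and 1.34 times for the 3 E2F genes. It also turned in technical replicate 1 alone (1.44 and 1.73 times) and for the summed CPM of the window (2.02 and 2.86 times). Cdc6, the ATPase that recruits the MCM helicase to origins, was highest of all members. It had 112, 254 and 117 CPM per kb in libraries 1, 2 and 3 (161 ± 80.5, SD, n = 3), from 23, 49 and 30 reads in a 123 bp region at chr11:98907672-98907795. Library 2 was the highest, and without it Cdc6 stood at 114, below Aurkb, Gmnn and E2f3. In technical replicate 1 alone Cdc6 had 126, from 4, 4 and 6 reads. This was below 6 members, of which Aurkb was highest at 221, from 8, 4 and 6 reads. The Cdc6 region overlaps the 5′ end of the Cdc6 gene span, 356 bp from the start used for its promoter, and also gave the value of the neighbouring Wipf2. Cdt1, which works with CDC6 to load MCM, had 108, 237 and 119 (155 ± 71.8), from 29, 60 and 40 reads at chr8:122576834-122576995. The Cdt1 value came from 3704 bp beyond the 3′ end of the gene, where the same region also served Aprt and Galns and lay nearest to Aprt. A region over the Cdt1 promoter itself had 44.5, 71.2 and 62.7 (59.5 ± 13.6), close to the median of all genes.

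Among the helicase subunits Mcm3 was highest, with 119, 219 and 85.1 CPM per kb in libraries 1, 2 and 3 (141 ± 69.4), from 54, 93 and 48 reads in the 271 bp region at chr1:20820225-20820496 that covers its start. Library 2 again gave the highest value, and without it Mcm3 stood at 102, below Mcm7 at 107. In technical replicate 1 alone Mcm3 had 97.2 and was outside the top 10%, with Mcm4 highest of the subunits at 156. These values rested on few reads in libraries 1, 2 and 3, with 12, 9 and 2 for Mcm3 and 2, 4 and 7 for Mcm4. Mcm7 had 148, 149 and 66.6 (121 ± 47.2) at chr5:138161012-138161149, where libraries 1 and 2 were close and library 3 was lower. This region lay 3434 bp beyond the 3′ end of Mcm7 and nearest to Cops6, and the region over the Mcm7 promoter had 64.5 ± 10.1. Mcm2 (86.4 ± 31.8), Mcm4 (80.2 ± 41.7) and Mcm6 (64.1 ± 3.03) followed, and Mcm5 was the lowest licensing gene at 43.0 ± 10.7. The Mcm2 region overlapped its start and also served Tpra1. The subunits of this single hexameric complex thus spanned 43.0 to 141, with the values of Mcm6 the closest between libraries. Those Mcm6 values rested on only 11, 11 and 15 reads, in a region 1019 bp beyond its 3′ end that also served Lct. A region over the Mcm6 promoter spread more, with 26.0, 48.5 and 99.2 in libraries 1, 2 and 3 (57.9 ± 37.5).

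Gmnn, which encodes geminin, the inhibitor of CDT1, had 144, 136 and 94.4 CPM per kb (125 ± 26.7), from 27, 24 and 22 reads at chr13:24761935-24762047, overlapping a gene end. Libraries 1 and 2 were above library 3, and technical replicate 1 alone gave 69.8, from 3, 2 and 2 reads. Orc1, a subunit of the origin recognition complex, stood at 88.6 ± 29.4, in a region 21 bp from its annotated start. This region lay nearest to Prpf38a and also served that gene. Mcm10 and Cdc45, which help to activate the loaded helicase, stood at 83.8 ± 31.9 and 82.8 ± 46.7. The Mcm10 region lay over its start. The Cdc45 region lay 164 bp inside the gene but nearest to Ufd1. With each region given only to its nearest gene, Cdc45 stood at 46.6. Pcna, the sliding clamp of DNA polymerases, had 34.4, 96.2 and 58.8 (63.1 ± 31.2) from a region 1425 bp beyond its 3′ end, nearest to Tmem230. No region lay over the Pcna promoter.

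Cyclins and kinases had a median of 65.7, nearer to the 58.8 of all genes. A region was present at 14 of 15, and 2 were in the top 10%. Cdk1, the kinase that drives entry into mitosis, had 50.8, 115 and 174 CPM per kb in libraries 1, 2 and 3 (113 ± 61.5), from 8, 17 and 34 reads in a 94 bp region at chr10:69352944-69353038, 32 bp upstream of its start. The 3 libraries spread more than 3-fold, and without library 3 Cdk1 stood at 83.0 and outside the top 10%. Cdc25a, a phosphatase that activates cyclin-dependent kinases, had 135, 98.2 and 92.1 (108 ± 23.0), from 60, 41 and 51 reads at chr9:109875281-109875547, overlapping its 5′ end. Its 3 values lay closer together than those of Cdk1, but without library 1 it stood at 95.1 and outside the top 10%. The other phosphatase genes were lower, with Cdc25c at 60.9 ± 30.9 and Cdc25b, the lowest of the group, at 49.8 ± 25.6, although the Cdc25b region lay over its promoter.

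Of the cyclins, Ccna2, the S and G2 phase cyclin A, was highest at 73.4, 132 and 77.8 CPM per kb (94.3 ± 32.4), in a region shared with Bbs7. The D-type cyclins of G1 stood at 89.9 ± 35.1 (Ccnd3), 64.5 ± 48.0 (Ccnd2) and 58.8 ± 10.8 (Ccnd1), and the G1/S cyclin gene Ccne2 at 87.3 ± 31.1. The mitotic cyclin genes Ccnb1 (60.2 ± 27.5) and Ccnb2 (57.4 ± 51.7) lay near the median of all genes. The Ccnb1 value came from a region 2779 bp beyond its 3′ end that lay nearest to Cenph and also served that gene. For Ccnb2 library 3 held no read in the region that gave its value, against 13 and 17 reads in libraries 1 and 2. Both B-type cyclin genes also had a region over the promoter, at 55.8 ± 14.3 for Ccnb1 and 54.5 ± 20.1 for Ccnb2. The S-phase kinase gene Cdk2 stood at 77.4 ± 8.92, from a region nearest to Rab5b, and at 68.1 ± 16.1 over its own promoter. Of the cyclin D partners, Cdk4 stood at 66.8 ± 11.5, from a region 100 bp upstream of its start, and Cdk6 at 55.1 ± 35.8, from a region 3222 bp beyond its 3′ end. The Cdk4 region also served Marchf9 and Tspan31.

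Mitotic genes with a region spanned 41.7 to 144 CPM per kb. A region was present at 6 of 8, 2 of them were in the top 10%, and their median was 55.4. Aurkb, the kinase of the chromosomal passenger complex, had 166, 191 and 74.7 CPM per kb in libraries 1, 2 and 3 (144 ± 61.2), from 25, 27 and 14 reads in a 90 bp region at chr11:69045559-69045649 that overlaps a gene end. Library 3 was the lowest, and technical replicate 1 alone gave 221, from 8, 4 and 6 reads. Top2a, topoisomerase II alpha, which untangles sister chromatids, had 80.3, 212 and 64.6 (119 ± 81.1), from 23, 57 and 23 reads at chr11:99024227-99024398. The value of Top2a rested on library 2, and without that library it stood at 78.6 and outside the top 10%. The spindle checkpoint kinase genes Bub1 and Bub1b stood at 63.8 ± 42.6 and 47.0 ± 13.0. The proliferation marker Mki67 had 20.7, 44.2 and 66.7 (43.9 ± 23.0), 2162 bp upstream of its start. Plk1, a mitotic kinase, was the lowest of all members at 41.7 ± 27.0, from a region 4167 bp beyond its 3′ end and nearest to Ern2. Bub1 and Plk1 did have regions over their promoters, at 38.8 ± 8.09 (a region of 649 bp) and 35.3 ± 10.8, at the 1.10 and 0.276 percentiles of all genes with a region there. The low Bub1 percentile depended on dividing by width, as this wide region held 136 reads. Without division by width Bub1 stood at 25.2 CPM and in the top 10% of genes (at or above 18.9).

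In the E2F and RB group 3 of 4 genes had a region. E2f3, an activator of S-phase genes, had 99.8, 135 and 137 CPM per kb in libraries 1, 2 and 3 (124 ± 21.1), from 55, 70 and 94 reads in a 329 bp region at chr13:29986057-29986386 over its promoter. It rested on the most reads of any member (219) and stayed in the top 10% under each of the 13 other ways of valuing genes that gave it a value. The other activator genes were lower, E2f2 at 73.8 ± 17.6 and E2f1 at 57.0 ± 25.6, from regions of 95 and 93 bp inside the gene span. E2f1 drew its value from a region nearest to Necab3.

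**Figure D2:**
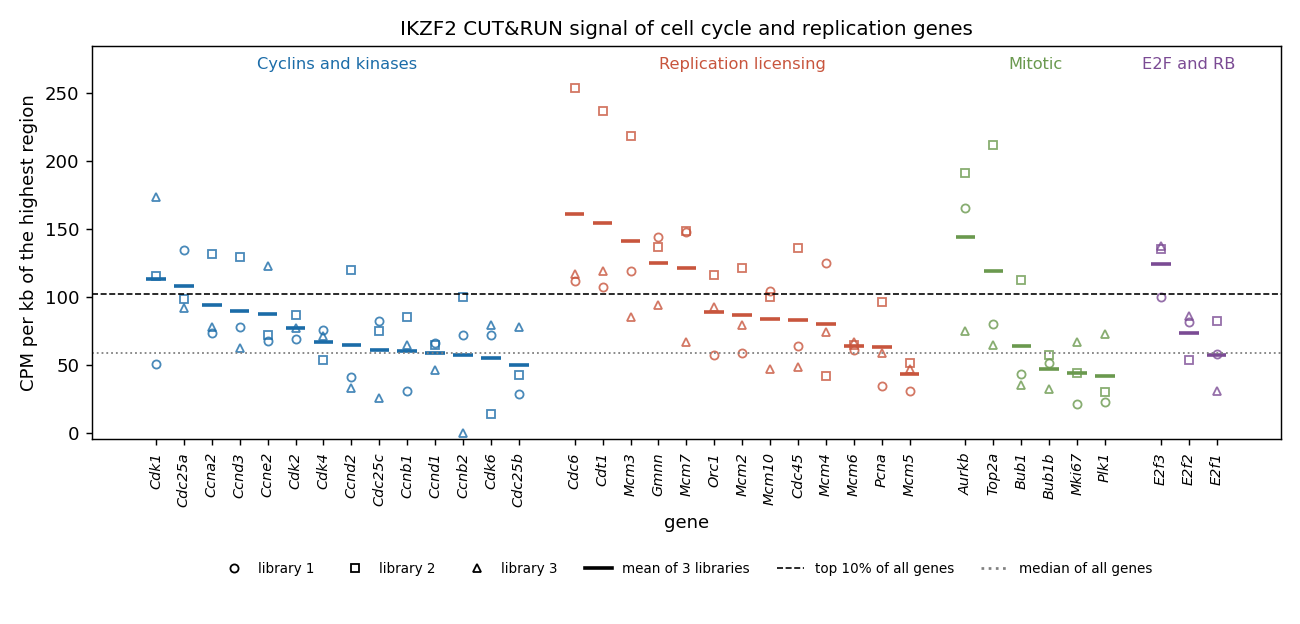
CPM per kb of the highest region of each member in library 1 (circles), library 2 (squares) and library 3 (triangles), with the mean of the 3 libraries as a bar, ordered within each role group. The dashed line marks the top 10% of all genes at 101.8 and the dotted line their median at 58.8. Library 2 lies far above the others at Cdc6, Cdt1, Mcm3 and Top2a, while the 3 points of Mcm6, from only 11, 11 and 15 reads, nearly coincide.

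The libraries spread widely at most members. The median coefficient of variation between libraries was 43.7% for the members and 42.7% for all genes, and at 9 of the 10 members in the top 10%, all but E2f3, the SD was larger than the distance of the mean from 101.8. Library 2 gave the highest of the 3 values at 20 of 36 members (55.6%), against 41.7% of all genes, and at 9 of 13 licensing genes. Ranked within single libraries, 8 of 36 members were in the top 10% in 2 libraries, against 4.62% of all genes, and 0 of 36 in all 3 libraries, against 1.92% of all genes. Technical replicates were compared with edgeR (quasi-likelihood, libraries as blocks). Of 40 member regions with enough reads to be tested 0 were called, against 0.259% of 27452 regions, and 4 had an unadjusted p under 0.05, against 6.86% of all regions. The lowest was the Mcm3 region, with a log2 difference of 1.34, technical replicate 2 over 1 (edgeR adjusted p = 0.332). Its reads numbered 42, 84 and 46 in the deeper technical replicate 2, against 12, 9 and 2 in technical replicate 1. In CPM per kb it had 149 and 97.2. The edgeR differences depended on the scaling of the samples. With total reads in regions in place of TMM, 0 of 40 had an unadjusted p under 0.05, against 3.49% of all regions. With that scaling 20 of 40 were higher in technical replicate 2, against 32 with TMM. Between the 3 libraries edgeR called 0 of 40 member regions, against 0.0146% of all regions, and 1 had an unadjusted p under 0.05, against 4.35%. As each library was a single CUT&RUN, this comparison set library differences against the spread of technical replicates only. DESeq2 called 0 in both tests, with 2 and 0 at an unadjusted p under 0.05. A p that misses the threshold at these counts does not show that the libraries were alike.

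The strongest member regions around gene starts lay within 0.5 kb of the start. The promoter table gave a start for 31 of 40 members, and Aurkb, Ccna2, Ccnd1, Ccnd2, Ccne2, Cdc25c, Gmnn, Mcm4 and Rb1 were not placed. Within 5 kb of those starts lay 53 regions, of which 22 had their centre within 0.5 kb, with a median of 67.5 CPM per kb, against 67.7 for regions that near to the starts of all genes. The 31 regions farther out had a median of 45.6 CPM per kb, against 49.9 for all genes. At or above 101.8 stood 6 of the 22 nearer regions (27.3%), against 15.7% for all genes, at Cdc6, Mcm3, E2f3, Top2a, Cdk1 and Cdc25a. Farther out these were 0 of 31, against 2.09% for all genes. A region overlapped the promoter window of 18 of 31 members (58.1%), against 26.9% of 17492 protein-coding genes with a promoter in the table. By role these were 7 of 10 cyclin and kinase genes, 7 of 11 licensing genes, 3 of 7 mitotic genes and 1 of 3 E2F genes. The signal of these promoter regions was not above that of other genes with one, with medians of 67.5 for members and 71.5 for all genes. The highest region lay over the promoter at 10 of the 28 members with both a region and a start. That share was not counted over all genes. The highest region was nearest to the member itself at 27 of 36 members and nearest to another gene at 9, against 80.9% of all genes with their highest region nearest to themselves. At 12 members (33.3%) the same region also gave the value of another gene, against 28.2% of all genes with a region.

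**Figure D3:**
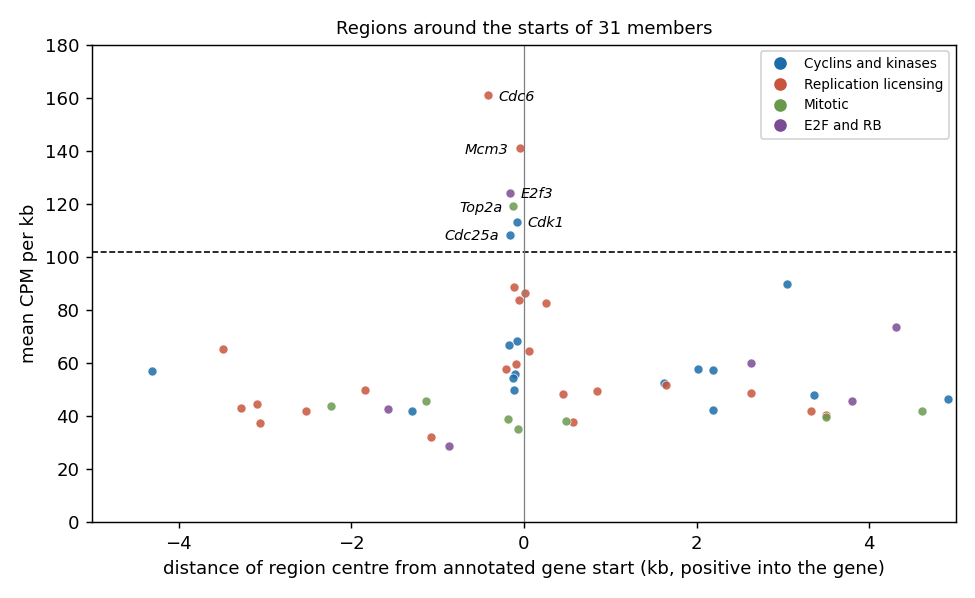
Mean CPM per kb of each region within 5 kb of the annotated start of the 31 members with a start, against the distance of its centre from the start in kb, coloured by role. The 6 named regions above the dashed line (top 10% of genes, 101.8) all lie within 0.5 kb of the start, on its upstream side.

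Promoters of members held E2F, CHR and CCAAT letters more often than promoters of all genes, and the Ikaros core at about the same share. Exact matches on both strands of the 300-base windows were counted, and matches of different motifs may overlap. An E2F match was found in 11 of 31 member promoters (35.5%), against 5.11% of all. CHR letters stood in 13 (41.9%), against 18.1%, and in all 7 mitotic promoters. CCAAT stood in 24 (77.4%), against 39.2%, and the GC box GGGCGG in 25 (80.6%), against 46.5%. The core GGGAA stood in 18 (58.1%), against 62.6% of all promoters. Split by the presence of a region, GGGAA stood in 13 of 18 member promoters with a region and 5 of 13 without, against 66.4% and 61.2% of all promoters with and without a region. The GC box stood in 18 of 18 member promoters with a region and 7 of 13 without, against 68.0% and 38.6% of all promoters. Median GC content was 57.7% in member promoters and 56.3% in all, and 60.7% and 54.0% in all promoters with and without a region. A match gives the presence of these letters only, and no test was made of these shares.

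**Figure D4:**
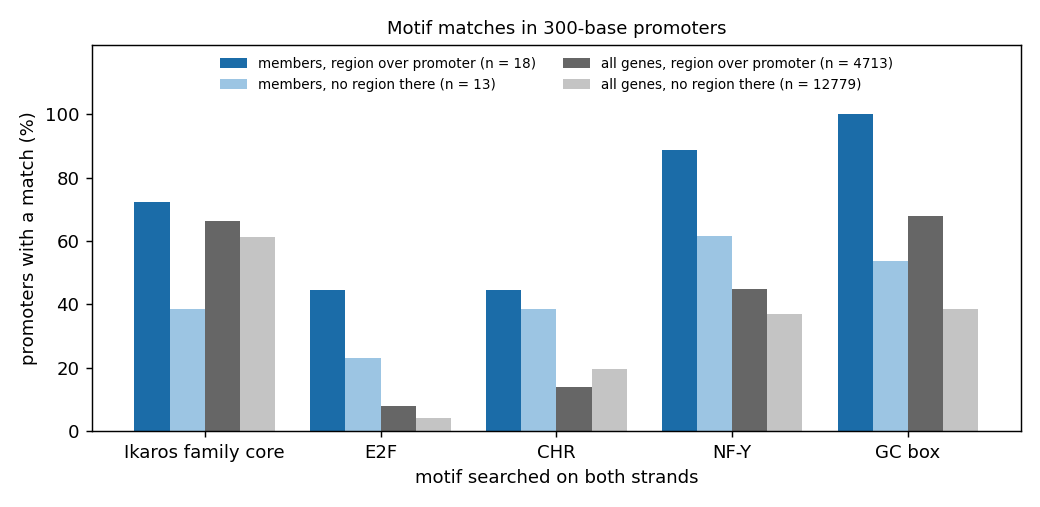
Percent of 300-base promoters with at least 1 exact match to each motif, for members with and without a region over the promoter (blue, n = 18 and 13) and for all genes with and without one (grey, n = 4713 and 12779). E2F, CHR and NF-Y matches are more frequent in members than in all genes, and GC box matches are more frequent where a region is present in both sets.

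Further genes of the pathway differed by group. Of 75 such genes 66 had a region, their median was 72.1, and 12 were in the top 10% (18.2% of those with a region, against 10.0% of all genes). Of the 7 genes for cyclin-dependent kinase inhibitors 5 had a region. None of these 5 was in the top 10%, and at a share of 10.0% so few genes may well hold none. Their median was 67.6, against 58.8 for all genes with a region. Of 27 other replication genes 24 had a region, their median was 75.6, and 5 were in the top 10%. These were Orc3 (171 ± 78.5), Gins2 (164 ± 28.4), Pold1 (137 ± 18.2), Rfc5 (130 ± 24.3) and Orc5 (107 ± 34.7), which encode origin recognition, helicase, polymerase and clamp loader subunits. The Orc3 region lay nearest to Rars2 and also served that gene, and the Pold1 region also served Nr1h2. Of 20 genes of mitosis and the anaphase-promoting complex 18 had a region, their median was 81.0, against 55.4 for the mitotic members, and 5 were in the top 10%. Mad2l1, a spindle checkpoint gene, led them at 139, 270 and 165 CPM per kb in libraries 1, 2 and 3 (191 ± 69.6), followed by Ncapg (121 ± 51.8), Cdca8 (114 ± 41.4), Cenpa (107 ± 48.2) and Anapc1 (103 ± 29.5). The Cdca8 region lay nearest to another gene and also gave the value of that gene. Other E2F, RB and DREAM genes had a median of 61.3, near that of all genes, and 1 of the 14 with a region was in the top 10% (7.14%), the MuvB subunit gene Lin52 at 114 ± 9.58. Its region also served Aldh6a1. Of 5 checkpoint genes with a region 1 was in the top 10%, the checkpoint kinase gene Chek2 at 107 ± 47.1, in a region shared with Hscb. Gins2, Pold1 and Mad2l1 were in the top 10% within each of the 3 libraries (4.55% of the 66, against 1.92% of all genes with a region). In the main list this held for 0 of 36, and at a share of 1.92% so small a list may well hold none.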

How the data were processed

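Raw read counts per region, not normalized, were deposited for 6 samples, per the file headers. The submitters' processing notes list mm10, Bowtie2 2.3.3.1 and MACS2; the settings used are not given in the sources used for this work. Region starts are printed as deposited, with widths as end minus start; nothing in the headers says whether they count from 0 or 1. Of counts of 10 or more, 84.7 to 87.4% were even in the samples of technical replicate 1, against 58.0 to 61.2% for technical replicate 2 (cause not tested), so reads may not be independent.

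Technical replicates were summed per library. Genes and promoters came from RefSeq GRCm38.p6, the assembly behind mm10; of several promoters of a gene, the one with the strongest region was used. Dividing by width favours narrow regions. The members and lists were chosen with earlier results of these data known. Named are members in the top 10%, the 3 highest and the lowest of each role group, members without a region, and Cdk1, Mki67, Pcna, Mcm2, Rb1 and E2f1, with other members by role. From the further list, genes in the top 10% are named.

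edgeR 4.0.16 (R 4.3.3; filterByExpr by library, TMM, glmQLFit, glmQLFTest, Benjamini-Hochberg over all regions, adjusted p under 0.05) compared technical replicates, blocked by library because the labels tie both to the same CUT&RUN, and compared libraries with a technical replicate term. The deviations of both technical replicates of a library correlated at only 0.083 to 0.122, over the 1847 regions with the most reads. DESeq2 1.42.0 was an alternative. The steps were tested on simulated data. Python 3.11.15, numpy 2.4.6, pandas 2.3.3 and matplotlib 3.10.9 did the rest.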

Additional observations from a re-analysis of the deposited data

How the results depend on the processing

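The count of members in the top 10% of genes was 10 of 36 (27.8%). It lay between 7 and 11 under the other ways of valuing genes, with exceptions where fewer members had a value. With regions of 200 bp or wider it was 3 of 18 (16.7%), and among genes with 3 regions only 4 of 12 (33.3%). Each stands against 10.0% of all genes. Leaving out a library gave 9 to 10, and 5 to 6 for licensing genes. The licensing count of 5 of 13 lay between 4 and 6, except where fewer licensing genes had a value. It was 3 of 11 both within 1 kb of a gene end and with regions given to the nearest gene. With regions of 200 bp or wider it was 1 of 5, and among genes with 3 regions 3 of 8. The members' median over that of all genes was 1.34 and stood at 1.11 within 1 kb, 1.15 with the nearest gene, 1.87 for the summed CPM of the window, 1.71 without division by width, 0.991 with regions of 200 bp or wider, 1.21 in technical replicate 2, 1.10 with the region chosen on the other 2 libraries, 1.08 for the mean of the regions and 1.19 to 1.26 without a library. The same ratio was 1.33 among genes with 3 regions, 1.34 with TMM library sizes and 1.26 in technical replicate 1. The mean of the regions and genes with 3 regions were added after seeing the data. The count of members with a region within 1 kb was 28, and 12 had one overlapping an end; 38 had one within 10 kb. The causes were not tested. Of 368 member values under other settings 330 moved by less than the SD between libraries. That SD was wide at many members, so the count does not show that the values were stable. Top2a was counted among the 330 although it moved from 119 to 38.0 with regions of 200 bp or wider (SD 81.1). Of the 10 members in the top 10%, E2f3 stayed there in 13 of 13 other settings, Mcm3 in 13 of 14, Cdc6 in 12 of 13, and Cdk1, Gmnn and Mcm7 in 8 of 12, while 17 of the other members were there in none.

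No member region was called in any edgeR or DESeq2 setting (0 with no replicate block, as in the paired fit). Over all regions 71 were called between technical replicates, 46 without a filter, 2 of the gene windows, and 18, 0 and 8 without library 1, 2 or 3. Between libraries 4 were called, 0 of the gene windows, 0 with no replicate block, and 4, 0 and 0 without library 1, 2 or 3. The highest regions of the members held 25 to 219 reads, and 40 of the 114 member regions had enough reads to be tested.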
